A study of Bos taurus with 6 samples.

Results

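bta-miR-221 and bta-miR-222 are a pair of microRNAs (miRNAs) whose genes lie side by side on the X chromosome. Both were taken by name from the small RNA libraries of cattle liver, which list 1030 mature miRNAs, so that the pair is 2 of 1030. They were chosen by name. The one measured value in the rule was the read count, of which the largest over the precursor rows of a mature miRNA was taken in each library. Each member had 1 precursor row in every library, so this step selected nothing. The livers belonged to 3 grass-fed and 3 grain-fed Wye Angus steers of 1 closed herd, with 1 library per animal. The grass-fed steers ate mainly alfalfa, hay or pasture grass and were 21 months old, and the grain-fed steers ate mainly corn silage, shelled corn and soybean with minerals and were 14 months old. Each group was sampled at market weight, so diet and age cannot be told apart.

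Mature miRNAs are short RNAs that guide Argonaute proteins to partly complementary sites in mRNAs and lower the output of those mRNAs. Target choice rests largely on the seed, the stretch of bases near the 5′ end, and miR-221 and miR-222 share their seed and are processed from a common primary transcript. Known targets of both are CDKN1B and CDKN1C, inhibitors of the cyclin-dependent kinases that drive the cell cycle, and KIT, the receptor of stem cell factor. The pair is known as abundant in endothelial and smooth muscle cells and as raised in activated hepatic stellate cells and in liver cancer. The diet contrast therefore addresses whether a pair with a common transcript and a common seed changed together.

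Both members matched RefSeq gene symbols of the ARS-UCD2.0 assembly, MIR221 and MIR222, a later assembly than the one the authors mapped to, and only names and gene order were taken from it. In that annotation 0 genes lay between the starts of the 2 miRNA genes, and the lncRNA LOC132344329 spanned both. The nearest protein-coding genes were ZNF674 on one side and DIPK2B on the other. The next miRNA genes were MIR1468 and MIR2488.

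The grass-fed libraries held 3824592 to 6133960 miRNA counts and the grain-fed libraries 464875 to 892929, so depth separated the groups as diet and age did, and its part in the differences was not tested. bta-miR-122, which defines hepatocytes, was the most abundant miRNA in 5 of 6 libraries. Levels are given in CPM, counts per 1000000 miRNA counts of the library, after TMM scaling, which sets libraries on a common scale by the bulk of their miRNAs. A miRNA is counted as a whole molecule, so no length correction applies between miRNAs. How evenly library preparation captured different miRNAs was not tested, so levels and shares between miRNAs are those of the counts. Intervals on single libraries are exact 95% Poisson intervals and cover counting error only.

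bta-miR-221 was the more abundant member and was higher in the grass-fed group on average, with 1 grass-fed animal at the level of the grain-fed group. Its level was 145, 150.1 and 66.9 CPM in grass-fed replicates 1, 2 and 3, from 691, 637 and 255 counts. In grain-fed replicates 1, 2 and 3 it was 73.0, 42.5 and 39.0 CPM, from 75, 30 and 22 counts. Grass-fed replicate 3 lay below grain-fed replicate 1, so the groups overlapped, and the counting intervals of these 2 libraries, 59.0 to 75.7 and 57.5 to 91.6 CPM, overlapped too. The means were 121 ± 46.7 CPM in grass-fed and 51.5 ± 18.7 CPM in grain-fed steers (SD, n = 3 each). The edgeR quasi-likelihood test, adjusted over all 456 tested miRNAs, estimated the log2 fold change at 1.18 ± 0.37 (standard error), with FDR = 0.0493, which is a 2.27-fold higher level in grass-fed liver.

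bta-miR-222 was less abundant and showed no difference that passed the test. Its level was 25.1, 38.4 and 9.97 CPM in grass-fed replicates 1, 2 and 3, from 119, 163 and 38 counts. In grain-fed replicates 1, 2 and 3 it was 20.5, 21.2 and 16.0 CPM, from 21, 15 and 9 counts. The grain-fed values fell inside the grass-fed range, whose lowest and highest values were both grass-fed animals. The means were 24.5 ± 14.2 CPM in grass-fed and 19.2 ± 2.84 CPM in grain-fed steers (SD, n = 3 each). The same edgeR test estimated the log2 fold change at 0.34 ± 0.50 (standard error), with FDR = 0.752. In the library with the fewest counts, grain-fed replicate 3, the counting interval of bta-miR-222 ran from 7.30 to 30.3 CPM.

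**Figure D1:**
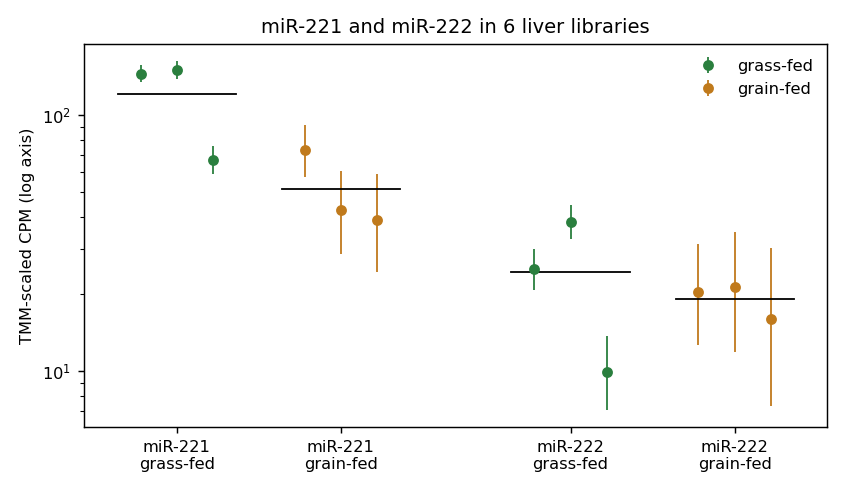
TMM-scaled CPM of miR-221 and miR-222 on a log axis in the 3 grass-fed (green) and 3 grain-fed (orange) libraries, in the order of replicates 1, 2 and 3. Points are libraries, vertical lines exact 95% Poisson intervals and black bars group means. The miR-221 points of 2 grass-fed libraries sit above all grain-fed points, and for miR-222 the grain-fed points, 16.0 to 21.2 CPM, lie within the grass-fed range.

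Of the 2 members, 1 passed FDR 0.1. Over all tested miRNAs 19.1% passed in either direction, 9.43% being higher and 9.65% lower in the grass-fed group. A single call among 2 names chosen with earlier results known is not a result about the pair as a set. By p-value bta-miR-221 ranked 69 and bta-miR-222 ranked 311 of 456. Neither member had CPM ranges that were separate between the groups, against 32.9% of all tested miRNAs. bta-miR-221 was 1 of 6 miRNAs, out of the 87 that passed, whose ranges overlapped.

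The spread between animals can be set against counting error, which is large for the grain-fed libraries. For bta-miR-221 the coefficient of variation was 38.7% in grass-fed and 36.4% in grain-fed liver, where counting alone gives about 4.81% and 17.5%. For bta-miR-222 it was 58.1% in grass-fed liver, above the 11.7% from counting, and 14.8% in grain-fed liver, below the 27.4% from counting. The grain-fed bta-miR-222 values thus lay closer together than counting error alone would place them on average. After TMM scaling both members were lowest in replicate 3 and highest in replicate 2 of the grass-fed group. Among the grass-fed animals the highest level was 2.24 times the lowest for bta-miR-221 and 3.85 times for bta-miR-222.

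The exact interval of the difference was wide for both members. The 9 differences of log2 CPM between a grass-fed and a grain-fed library form an exact 90% interval for a shift between the groups. That interval ran from -0.13 to 1.91 for bta-miR-221, with 8 of 9 differences above 0. For bta-miR-222 it ran from -1.12 to 1.19, with 6 of 9 above 0. Both intervals thus hold changes in both directions. The exact permutation test on the same log2 CPM gave p = 0.2 for bta-miR-221 and p = 0.8 for bta-miR-222.

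Whether the members changed together was read from their ratio within a library, which does not depend on how libraries are scaled. bta-miR-221 made up a larger share of the pair in each grass-fed library than in any grain-fed library. Its share of the summed bta-miR-221 and bta-miR-222 counts was 85.3%, 79.6% and 87.0% in grass-fed replicates 1, 2 and 3. In grain-fed replicates 1, 2 and 3 the share was 78.1%, 66.7% and 71.0%. The closest values, 79.6% in grass-fed replicate 2 and 78.1% in grain-fed replicate 1, had exact Clopper-Pearson 95% intervals of 76.7% to 82.4% and 68.5% to 85.9%, which overlapped. The grain-fed shares rest on 96, 45 and 31 counts.

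**Figure D2:**
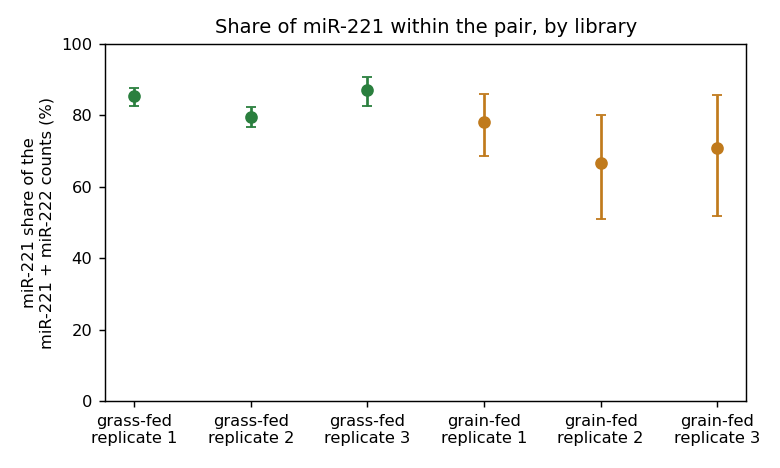
Share of miR-221 in the summed miR-221 and miR-222 counts, in percent, for each library, with exact Clopper-Pearson 95% intervals (green grass-fed, orange grain-fed). Grass-fed shares lie between 79.6% and 87.0% and grain-fed shares between 66.7% and 78.1%, with wider intervals in the grain-fed libraries.

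On the log2 scale the ratio of bta-miR-221 to bta-miR-222 was 2.41 ± 0.40 in grass-fed and 1.34 ± 0.43 in grain-fed liver (SD, n = 3 each). The difference was 1.06, with an exact 90% interval from 0.15 to 1.75. The exact two-sided permutation test gave p = 0.1, the smallest value that 3 libraries against 3 allow, and an adjusted p of 0.133 over the 4 pairs compared. This test therefore cannot pass 0.05 with these libraries, whose ratios did not overlap between the groups. After TMM scaling both fitted log2 fold changes were above 0, 1.18 and 0.34, and that of bta-miR-222 turned negative with total counts alone.

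Other small clusters were read in the same way. In miR-143/miR-145, a cluster of mesenchymal cells, the log2 ratio of bta-miR-143 to bta-miR-145 was lower in grass-fed liver, with a difference of -0.76 and an interval from -0.92 to -0.61 (exact permutation p = 0.1, adjusted p = 0.133). In miR-191/miR-425 the log2 ratio of bta-miR-191 to bta-miR-425-5p was higher by 1.15, with an interval from 0.72 to 1.82 (exact permutation p = 0.1, adjusted p = 0.133). In the erythroid cluster miR-144/miR-451 the difference was 0.10 with an interval from -1.15 to 1.31 (exact permutation p = 0.8, adjusted p = 0.8), and bta-miR-144 had 12 counts at most in a library. The sign of each difference depends on which member is written first, so the intervals of different clusters were not compared with each other. In 3 of the 4 clusters the ratio did not overlap between the diets, so separate ratios were not particular to miR-221/miR-222 among them. Single miRNAs had separate CPM ranges in 32.9% of all tested. How often the ratio of unrelated miRNAs separates was not tested.

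**Figure D3:**
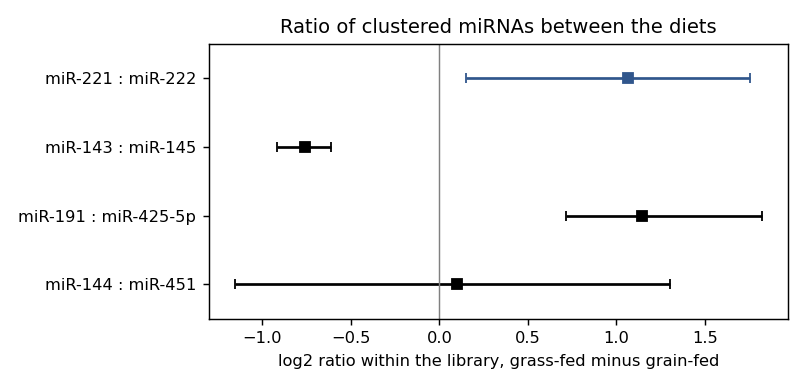
Difference between the diets in the log2 ratio of clustered miRNAs within a library, grass-fed minus grain-fed, for 4 clusters. Squares are differences of group means and bars the lowest and highest of the 9 differences between single libraries, an exact 90% interval. The miR-221 to miR-222 interval runs from 0.15 to 1.75, and the miR-143 to miR-145 interval lies below 0. The sign depends on which member of a cluster is written first.

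The call of bta-miR-221 depended on the scaling of the libraries and on single animals. With libraries scaled by total count alone its log2 fold change was 0.73 (FDR = 0.227, edgeR quasi-likelihood test), and that of bta-miR-222 turned to -0.14 (FDR = 0.890). The same change of scaling moved the median over all tested miRNAs, on the log2 fold scale, from 0.13 to -0.29. Relative to that median, bta-miR-221 stood at 1.02 to 1.05 and bta-miR-222 at 0.15 to 0.20 under each of 5 scalings. A change of scaling moves all miRNAs by nearly the same amount, so these distances hardly change by construction and do not measure robustness. The call of bta-miR-221 was lost without grass-fed replicate 1 (FDR = 0.182), grass-fed replicate 2 (FDR = 0.186), grain-fed replicate 2 (FDR = 0.263) or grain-fed replicate 3 (FDR = 0.171, all edgeR). Within the grass-fed group both members were lowest in replicate 3. Without that library the log2 fold changes were 1.39 for bta-miR-221 (FDR = 0.0203, edgeR) and 0.60 for bta-miR-222 (FDR = 0.299, edgeR).

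**Figure D4:**
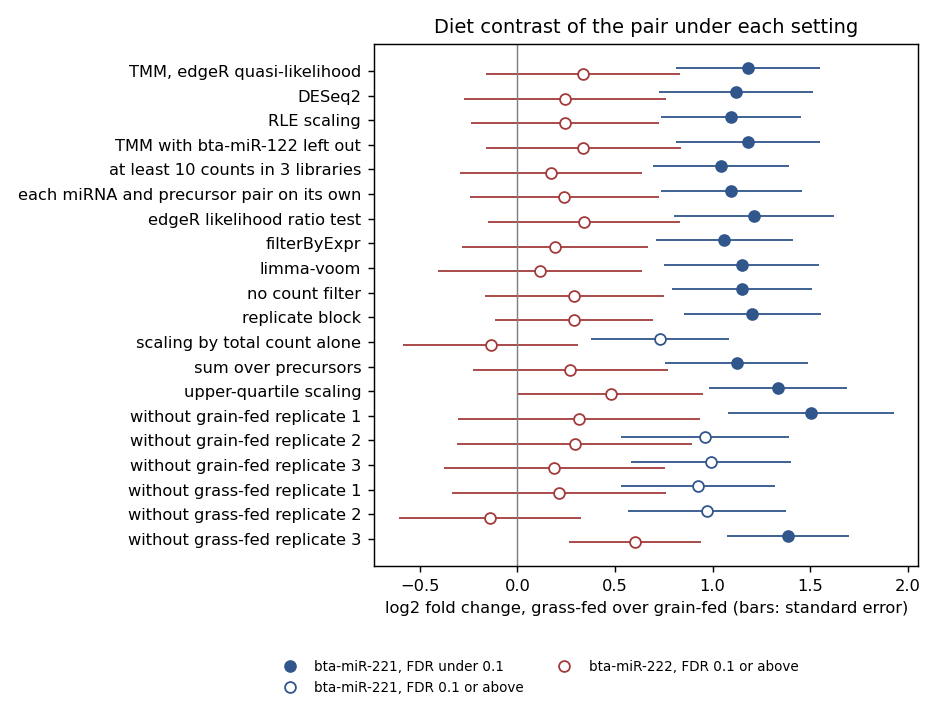
Log2 fold change of miR-221 (blue) and miR-222 (red), grass-fed over grain-fed, under each setting, with bars of 1 standard error. Filled points have an FDR under 0.1. miR-221 lies between 0.73 and 1.50 and is filled in most settings, and miR-222 lies between -0.14 and 0.60 and is filled in none.

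By mean CPM over the 6 libraries bta-miR-221 ranked 137 and bta-miR-222 ranked 204 of 456. The neighbours of bta-miR-221 in this order were bta-miR-155, known from activated leukocytes, with 88.6 CPM and bta-miR-106b, of a cluster that promotes cell division, with 84.7 CPM, beside 86.2 CPM for bta-miR-221 itself. The neighbours of bta-miR-222 were bta-miR-424-5p with 21.97 CPM and bta-miR-193a-3p with 21.6 CPM, beside 21.8 CPM. The neighbours were picked as the closest in mean level, so overlap with the member beside them was set by that choice. The ranges of all 4 over the libraries did overlap that of the member.

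Across the 6 libraries, the miRNA with the highest Pearson r to the mean log2 CPM of the 2 members was bta-miR-143 (r = 0.982). Its r was 0.970 with bta-miR-221 and 0.753 with bta-miR-222. It was taken from 258 miRNAs with a mean of at least 10 CPM. The next were bta-miR-2284w (r = 0.949), bta-miR-30e-5p (r = 0.924), bta-miR-155 (r = 0.903) and bta-miR-885 (r = 0.898). These values order miRNAs over 6 libraries that also differ in depth, and they are a description. bta-miR-221 and bta-miR-222 had an r of 0.582 with each other. Of the 5 miRNAs, 0 passed FDR 0.1, beside 19.1% over all tested miRNAs. The log2 fold changes of the 5 lay between 0.16 and 0.41.

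The pair was set beside miRNAs of the cell types in which it is known. In bulk liver, fewer cells of a type and less RNA per cell cannot be told apart. Of the endothelial list, bta-miR-126-3p and bta-miR-126-5p, 0 of 2 passed FDR 0.1, beside 19.1% over all tested miRNAs. Their log2 fold changes were 0.12 (FDR = 0.782) and 0.34 (FDR = 0.422, both edgeR). The summed level of the list was 11448 to 16151 CPM in grass-fed and 9475 to 14334 CPM in grain-fed liver. Of the mesenchymal and stellate list, 4 of 10 were higher and 0 lower, beside 9.43% higher over all tested miRNAs, and the median log2 fold change was 0.33 against 0.13 for all. bta-miR-145, which marks smooth muscle and other contractile cells, rose by 1.09 on the log2 scale (FDR = 0.00599, edgeR). The others were bta-miR-199a-5p and the near-identical entries bta-miR-199c and bta-miR-199a-3p, whose reads cannot be separated. These 2 entries hold nearly the same reads, so the 4 calls are not 4 separate measurements. The most abundant uncalled members were bta-miR-143 at 0.33 (FDR = 0.271) and bta-miR-152 at 0.06 (FDR = 0.877, both edgeR). With upper-quartile scaling 6 of 10 were higher and the median was 0.51. With total counts alone 1 of 10 was called and the median was -0.10. The count was also 1 without grass-fed replicate 1, grain-fed replicate 1 or grain-fed replicate 2, with the replicate number as a block, and at FDR 0.05. The summed levels of this list, 91028 to 129092 CPM in grass-fed and 83966 to 96049 CPM in grain-fed liver, overlapped between the groups.

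In the hepatocyte list 2 of 7 were higher and 0 lower, beside 9.43% higher over all tested miRNAs, with a median log2 fold change of 0.41. The called members were bta-miR-122, which shapes lipid metabolism, at 1.12 (FDR = 0.00417, edgeR) and bta-miR-192, a miRNA of liver and gut epithelium, at 0.65 (FDR = 0.0285, edgeR), and the second was not called with total counts alone (FDR = 0.468). bta-miR-148a had 0.46 (FDR = 0.212) and bta-miR-30a-5p 0.18 (FDR = 0.515, both edgeR). With upper-quartile scaling 4 of 7 were higher and the median was 0.57. With total counts alone 1 of 7 was called and the median turned to -0.05, and 1 of 7 was called without grain-fed replicate 1 or 2. After TMM scaling the summed level of the list was 600545 to 906411 CPM in grass-fed and 410181 to 466593 CPM in grain-fed liver, with no overlap. Most of this sum came from bta-miR-122, with means of 345207 and 159277 CPM, and bta-miR-148a, with 192299 and 139781 CPM. The sum thus does not stand for the list as a whole. The part of the list in the difference of bta-miR-221 was not tested.

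The leukocyte list had no call in the direction of bta-miR-221. In that list 0 of 8 were higher and 2 were lower, beside 9.43% and 9.65% over all tested miRNAs. The median log2 fold change was -0.56, and 6 of 8 values were below 0. The called members were bta-miR-146a at -0.67 (FDR = 0.0920, edgeR) and bta-miR-146b at -0.76 (FDR = 0.0332, edgeR), both known to restrain inflammatory signalling. bta-miR-142-5p, a marker of blood cells, had -0.13 (FDR = 0.766, edgeR). Above 0 were bta-miR-155 at 0.40 (FDR = 0.442) and bta-miR-342 at 0.39 (FDR = 0.328, both edgeR). With upper-quartile scaling 1 of the list was higher and 1 lower, with total counts alone 4 were lower, and 1 was called without grass-fed replicate 2 or 3 or grain-fed replicate 2 or 3. Of the erythroid list 0 of 3 passed (median -0.32), beside 19.1% over all tested miRNAs. With total counts alone 1 passed, bta-miR-451, which was lower. The biliary list had 1 of 6 higher, bta-miR-200b at 1.11, and 1 lower, bta-miR-141 at -1.75, with a median of -0.14. These counts stand beside 9.43% higher and 9.65% lower over all tested miRNAs. With total counts alone bta-miR-200b was at 0.69 and lost its call (FDR = 0.115, edgeR), and the median was -0.59. bta-miR-200a, the most abundant of the list, had 0.14 (FDR = 0.819, edgeR). The summed levels of the leukocyte, erythroid and biliary lists overlapped between the groups, with 1616 to 2322, 419 to 643 and 630 to 914 CPM in grass-fed and 2305 to 2821, 465 to 665 and 456 to 767 CPM in grain-fed liver.

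Other miRNAs known to repress cyclin-dependent kinase inhibitors, the target class of the pair, were listed as well. Of 14 listed, 13 were tested, 1 was higher and 0 were lower, beside 9.43% and 9.65% over all tested miRNAs, with a median log2 fold change of -0.27 and 9 of 13 values below 0. The member that rose was bta-miR-92a, of the cluster miR-17/miR-92, with 5302 ± 1382 CPM in grass-fed and 2796 ± 358 CPM in grain-fed steers (SD, n = 3 in each group), and its log2 change was 0.92 (FDR = 0.0153, edgeR). The other most abundant members, which did not pass, had values above 0. bta-miR-148a had 0.46 (FDR = 0.212, edgeR), bta-miR-25, known to repress CDKN1C, had 0.43 (FDR = 0.197), and bta-miR-24-3p, known to repress CDKN1B, had 0.33 (FDR = 0.335, both edgeR). With upper-quartile scaling 3 were higher and 0 lower, and the median was -0.06. With total counts alone 0 were higher and 2 lower, and the median was -0.64. Without grain-fed replicate 2 no member was called.

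Among miRNAs linked to liver fibrosis, 4 of 12 were higher and 0 lower, beside 9.43% higher over all tested miRNAs, with a median log2 fold change of 0.45. These were bta-miR-122, bta-miR-200b, bta-miR-199a-3p and bta-miR-199a-5p, all of them also in the lists above. bta-miR-122 is known to be lost in fibrosis and the miR-199a arms to be gained. bta-miR-21-5p, a miRNA raised in activated stellate cells, had 0.20 (FDR = 0.603, edgeR). With upper-quartile scaling 5 of 12 were higher, and the median was 0.62. With total counts alone 1 of 12 was higher, and the median was 0.02. The count was 2 without grass-fed replicate 1, grain-fed replicate 1 or grain-fed replicate 2, with the replicate number as a block, and at FDR 0.05.

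**Figure D5:**
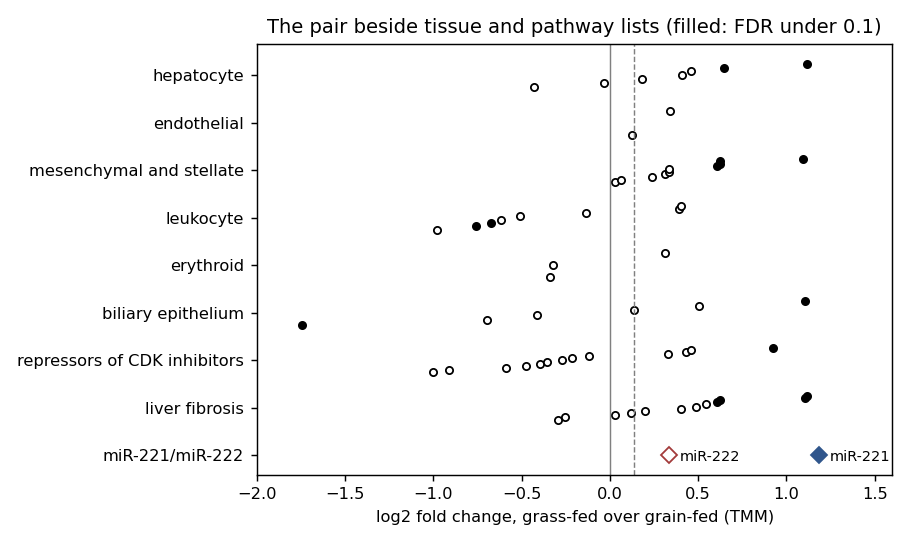
Log2 fold change, grass-fed over grain-fed, of the tested members of each list and of the pair. Filled symbols have an FDR under 0.1, the solid line is 0 and the dashed line the median of all tested miRNAs (0.13). miR-221 at 1.18 lies to the right of every list member, and miR-222 at 0.34 lies among them.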

How the data were processed

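Small RNA of 18 to 30 bases from 6 livers was sequenced. Per the methods, the authors trimmed adapters, discarded reads of low quality, kept lengths of 17 to 25 bases, aligned these to the ARS-UCD1.2 genome and then counted miRBase release 22 miRNAs with miRDeep2 (version and settings not given in the sources used here). FastQC 0.11.5 and Trimmomatic 0.36 are named in the submitters' processing notes. The deposited counts are raw and fill 1207 rows per library, 1 for each precursor of each mature miRNA. The deposited CPM, which divides them by the library total, was left aside.

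The largest count over precursors was taken for each mature miRNA, and those exceeding 2 counts in 2 or more libraries were tested with edgeR 4.0.16 (TMM, quasi-likelihood test, legacy = FALSE, Benjamini-Hochberg, FDR 0.1) in R 4.3.3. Standard errors come from dividing log2 fold changes by the square root of F. Log2 ratios, log2 differences and r used counts plus 0.5, and ratios were compared by exact permutation over libraries. Alternatives included DESeq2 1.42.0 and limma 3.58.1. Libraries of a group differed by more than sampling noise. edgeR p-values weigh the group difference against the spread between these animals, and permutation p-values weigh it against relabelled libraries. Neither separates diet from age or depth.

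The members and lists were chosen with earlier results of these data known. The lists come from general knowledge. Named miRNAs are the members, 3 other clusters, up to 4 of the most abundant and all called members of each list, the 5 most alike and the neighbours in level. Counts over the X chromosome and distances were not computed, because the assemblies differ. Mature sequences were not used here.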

Additional observations from a re-analysis of the deposited data

How the results depend on the processing

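bta-miR-221 kept its direction in all 20 alternatives and its call in 15. It was not called with total counts alone (0.73). With each library left out in turn its log2 fold change ranged from 0.92 to 1.50, with 2 of 6 calls. bta-miR-222 was called in 0 alternatives. It turned to -0.14 with total counts alone and to -0.14 without grass-fed replicate 2, and lay between -0.14 and 0.60 over the libraries left out. The log2 ratio of the members differed by 0.88 to 1.30 over the libraries left out and by 1.04 to 1.06 in the other settings.

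The number of miRNAs past FDR 0.1 was 87. It lay between 49 and 86 over the libraries left out, with 49 without grain-fed replicate 2. It was 74 with total counts alone (9 higher, 65 lower), against 43 higher and 44 lower after TMM, and 124 with upper-quartile scaling (82 higher, 42 lower).

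Same-numbered libraries did not deviate together (correlations of -0.02, -0.19 and -0.03), and differently numbered ones ranged from -0.16 to 0.19. No pairing by number was seen, though so few libraries could not show a weak one. With the replicate block 82 miRNAs were called, and edgeR placed bta-miR-221 at 1.204 on the log2 scale (FDR = 0.0104) and bta-miR-222 at 0.29 (FDR = 0.781). Within replicate numbers the mean difference of the log2 ratio of the members is 1.06 by construction (exact sign-flip test, p = 0.25). The 9 to 21 grain-fed counts of bta-miR-222 limit what can be detected for it.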
